A study of Mus musculus with 8 samples.

Results

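The BCL2 family decides whether a cell's mitochondria release the factors that start apoptosis. The 10 members examined here are Bcl2, Bcl2l1, Mcl1, Bax, Bak1, Bbc3, Pmaip1, Bid, Bcl2l11 and Bad, taken by symbol from the RNA sequencing table, in which each has 1 row among 23361 genes. All 10 passed the filter on low values. Their levels were compared between 5 cancers of the gastric squamous-columnar junction (SCJ), the border between the squamous forestomach and the glandular stomach, and the SCJ of 3 control stomachs. The cancers are labelled Trp53-/-Rb1-/-. They arose in mice carrying Lgr5eGFP-Ires-CreERT2, floxed alleles of both genes and the Ai9 tdTomato reporter, in which tamoxifen starts deletion in Lgr5+ cells, so that only those cells and their progeny carry it. Tumor borders were set by tdTomato, and a dissected piece can still hold cells without the deletion, such as stroma. The controls are labelled wild type and came from age-paired mice.

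Members of the family act in 3 roles. Anti-apoptotic proteins (BCL2, BCL-XL from Bcl2l1, and MCL1) bind and hold back the other members. The effectors BAX and BAK, from Bax and Bak1, form pores in the outer mitochondrial membrane through which cytochrome c escapes to build the apoptosome and activate caspase-9. BH3-only proteins (PUMA from Bbc3, NOXA from Pmaip1, BID, BIM from Bcl2l11, and BAD) report stress by engaging the anti-apoptotic proteins or the effectors. Bax, Bbc3 and Pmaip1 are textbook transcriptional targets of p53, the product of Trp53, and E2F1, which the RB1 protein restrains, can also activate genes of the BH3-only class. Much of the family's control lies in protein turnover, cleavage, phosphorylation and binding, none of which mRNA levels measure.

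Levels are FPKM, fragments per kilobase of transcript scaled to the mapped fragments, which the authors rounded to whole numbers, so a member at 1 to 3 FPKM can take few values. FPKM summed to between 403569 and 573858 in the cancers and to between 887141 and 992550 in the controls. The libraries therefore differ in overall scale, and each result below is also given after rescaling every library to the same sum (TPM), where that changes it. Neuroendocrine markers were higher in the cancers for 8 of 8 genes, where 16.2% of all genes were, and their summed FPKM was 8047 to 17897 in the cancers and 125 to 188 in the controls. The summed FPKM of 8 gastric gland markers was 519, 55398, 3914, 30550 and 12282 in cancers 1 to 5 and 144402, 108786 and 149419 in controls 1 to 3. A ninth gland marker, Pgc, was listed at 0 in controls 2 and 3 and was left out of that sum. Squamous markers summed to 1 to 1912 in the cancers and 2759 to 4699 in the controls. Of these, Krt5, Krt14 and Trp63 were higher in cancer 4 than in any control and lower in cancers 1, 2, 3 and 5. By limma 1 of 9 gland and 2 of 8 squamous markers fell with FPKM, against 18.3% of all genes. With TPM 1 of each fell, against 3.68%. Trp53 itself stood at 12, 22, 12, 30 and 12 FPKM in cancers 1 to 5 and at 16, 17 and 19 in controls 1 to 3, and its groups overlapped, whereas with TPM they did not and its log2 fold change was 0.86 (limma adjusted p = 0.0201). Values per gene do not resolve the deleted exons. Rb1 had 4 to 6 FPKM in the cancers and 9 or 10 in the controls, a log2 fold change of -0.90 (adjusted p = 0.00589, limma with Benjamini-Hochberg adjustment) that was -0.05 with TPM.

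Of the 10 members, 2 fell in the cancers, the effector Bak1 and the BH3-only gene Bad, and 1 rose, the BH3-only gene Bbc3 (limma on log2(FPKM + 1), Benjamini-Hochberg adjusted p under 0.05 over 14357 genes). The other 7, among them all 3 anti-apoptotic genes and Bax, did not pass the test. The called members made up 30.0% of the family, against 34.5% of all genes tested, and by direction the background was 16.2% higher and 18.3% lower. The share of called members was thus near that of genes in general. Groups did not overlap for 2 members, Bak1 and Bad, both lower in the cancers, against 34.1% of all genes, made up of 19.8% lower and 14.4% higher. The median log2 fold change was -0.22 over the members and -0.04 over all genes.

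The scaling of the libraries bore on these directions, and with TPM the sign turned for 4 of the 10 members (Bcl2, Bcl2l1, Mcl1 and Pmaip1). On the log2 scale the median difference of all genes was then 0.81 and that of the members 0.69. With TPM 5 members rose (Mcl1, Bax, Bbc3, Bid and Bcl2l11) and 0 fell by limma (0 fell at an unadjusted p under 0.05 and 0 by the exact permutation test), against 50.0% of all genes higher and 3.68% lower. The groups then did not overlap for 6 members, those 5 and Bcl2l1, all higher in the cancers, against 49.6% of all genes higher and 4.51% lower without overlap. Set against the median of all genes on its own scale, each member kept its sign. Bak1 lay at -1.39 with FPKM and -1.31 with TPM, Bad at -0.95 and -0.87, Bbc3 at 0.68 and 0.62, and Mcl1 at -0.13 and -0.01.

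**Figure D1:**
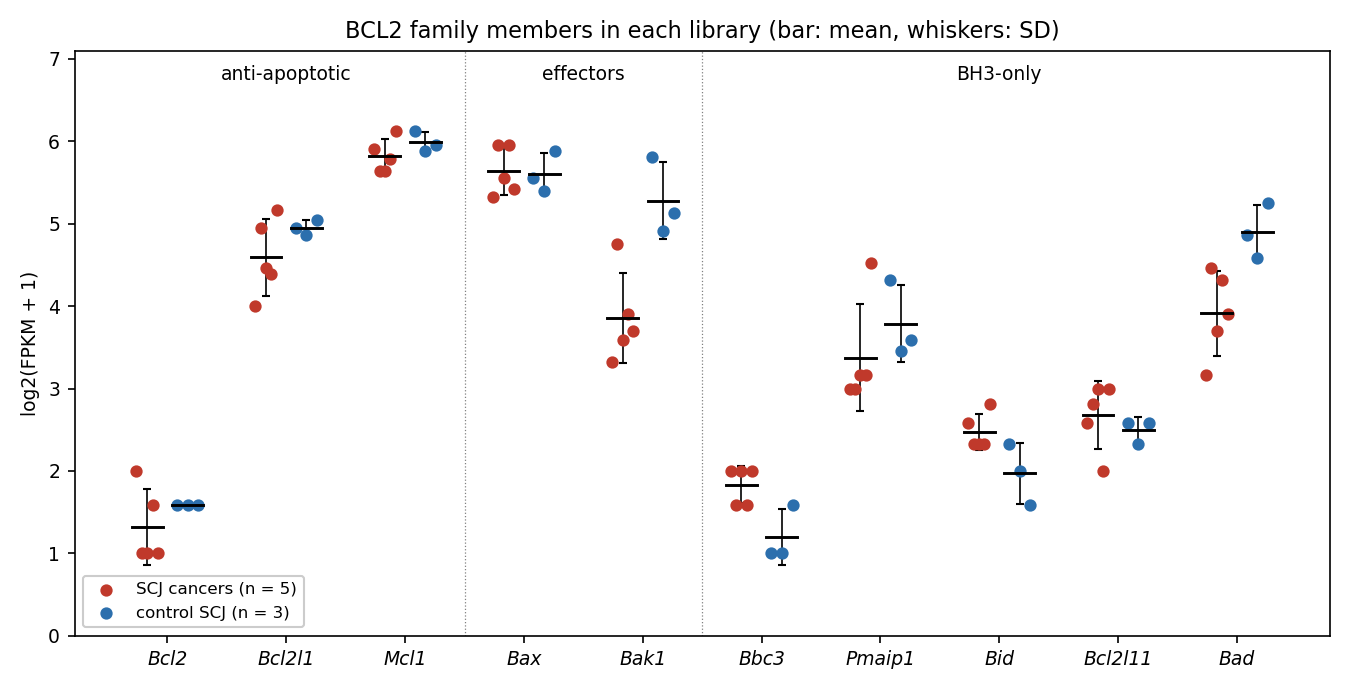
Levels of the 10 members, grouped by role on the horizontal axis, as log2(FPKM + 1) on the vertical axis. Each point is 1 library (red, 5 SCJ cancers; blue, 3 controls), with the group mean as a bar and the SD as whiskers; only Bak1 and Bad have groups that do not overlap, and with TPM, which is not plotted, neither is separated.

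Bak1 (Entrez 12018) encodes the effector that resides in the outer mitochondrial membrane. It stood at 9, 26, 11, 14 and 12 FPKM in cancers 1 to 5 and at 55, 29 and 34 in controls 1 to 3. Every cancer lay below every control, with cancer 2 only just below control 2. The means were 14.4 ± 6.73 (SD, n = 5) and 39.3 ± 13.8 (SD, n = 3), and the fitted level in the cancers was 0.372 times that in the controls (limma log2 fold change -1.43 ± 0.35 SE, adjusted p = 0.0184). The two-sided exact permutation test gave p = 0.0179, the smallest that 5 against 3 libraries allow. With TPM the log2 fold change was -0.50 (limma adjusted p = 0.150), and without control 1 or control 3 the adjusted p was 0.0760 or 0.0526. The row's locus in the table (mm10) is chr17:27018035-27036378 on the minus strand and also spans Ggnbp1 on the opposite strand, which had FPKM of 1 to 3 in every library. The libraries were directional per the labels, but whether strand was used in counting is not given in the sources used here.

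Bax (Entrez 12028) encodes the effector that moves from the cytosol to mitochondria on activation. It stood at 39, 61, 46, 61 and 42 FPKM in cancers 1 to 5 and at 46, 41 and 58 in controls 1 to 3. The groups covered the same range, and the log2 fold change was 0.03 with a 95% interval of -0.44 to 0.50 (limma adjusted p = 0.911). With TPM it was 0.996 (limma adjusted p = 0.00163), which is 0.19 above the median gene on that scale.

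Both effectors come from the same library, so their ratio does not depend on its scale. Bax made up 81.2, 70.1, 80.7, 81.3 and 77.8% of the summed FPKM of Bax and Bak1 in cancers 1 to 5, and 45.5, 58.6 and 63.0% in controls 1 to 3. The means were 78.2% ± 4.77 (SD, n = 5) and 55.7% ± 9.09 (SD, n = 3), without overlap between the groups. The log2 ratio of Bax to Bak1, on FPKM + 1 as for all log2 ratios here, ranged from 1.20 to 2.05 in the cancers and from -0.25 to 0.75 in the controls, so that control 1 was the single library with more Bak1 than Bax. These ratios are a description without a test. In bulk tissue fewer cells of a type and less RNA per cell cannot be told apart, and that holds for every difference reported here.

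Bok, a further gene of the effector type that lies outside the 10 members, moved the other way. It stood at 66, 75, 63, 40 and 70 FPKM in cancers 1 to 5 and at 37, 23 and 30 in controls 1 to 3, and every cancer lay above every control (limma log2 fold change 1.04 ± 0.24 SE, adjusted p = 0.0157). Without control 2 or control 3 its adjusted p was 0.0640 or 0.0513. Among the 3 genes together, a set put together after their values were seen, Bok took 34.8 to 57.9% of the FPKM in the cancers and 24.6 to 26.8% in the controls. Bak1 took 7.89 to 16.0% in the cancers and 27.9 to 39.9% in the controls. The share of Bax overlapped between groups, at 33.9 to 53.0% and 33.3 to 47.5%, as did the sum of the 3 genes, at 114 to 162 and 93 to 138 FPKM.

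**Figure D2:**
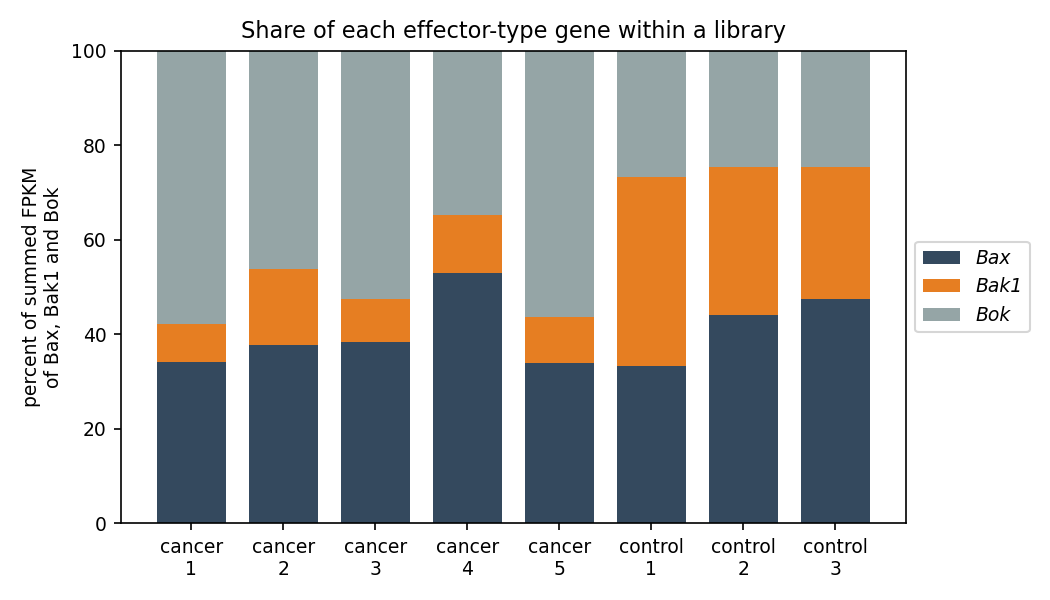
Percent of the summed FPKM of Bax, Bak1 and Bok (vertical axis) taken by each gene in every library (horizontal axis, 5 cancers and 3 controls). Bak1 takes 7.89 to 16.0% in the cancers and 27.9 to 39.9% in the controls, and Bok lies higher in each cancer than in any control.

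The windows around annotated starts of both effectors and of the other called members are shown to set the diverging genes side by side. Each runs from 250 bases before to 50 bases after a start (RefSeq, GRCm38.p6), 5′ to 3′ on the gene's strand, and capitals mark the GC box GGGCGG on either strand (CCGCCC when read on the other), with overlapping matches run together. The Bax window (chr7:45466849-45467148, minus strand) held 3 GC boxes and the Bak1 window (chr17:27028578-27028877, minus strand) held 0. The Bad window at the first of its 2 listed starts (chr19:6941611-6941910, plus strand) held 4 and the window at the second held 0, and the Bbc3 window at the first of its 3 listed starts (chr7:16309333-16309632, plus strand) held 5 and the other Bbc3 windows held 4 and 7.
Bax: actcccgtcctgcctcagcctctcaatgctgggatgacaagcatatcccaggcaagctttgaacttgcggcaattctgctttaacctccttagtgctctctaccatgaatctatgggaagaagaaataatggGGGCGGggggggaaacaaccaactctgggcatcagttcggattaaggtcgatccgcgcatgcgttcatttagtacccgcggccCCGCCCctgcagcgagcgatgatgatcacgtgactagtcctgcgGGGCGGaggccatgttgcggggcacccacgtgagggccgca
Bak1: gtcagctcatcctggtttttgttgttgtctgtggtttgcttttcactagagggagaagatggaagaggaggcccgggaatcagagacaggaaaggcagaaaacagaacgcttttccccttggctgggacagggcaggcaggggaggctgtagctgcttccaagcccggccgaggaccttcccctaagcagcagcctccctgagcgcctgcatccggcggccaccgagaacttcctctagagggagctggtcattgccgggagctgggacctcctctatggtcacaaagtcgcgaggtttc
Bad: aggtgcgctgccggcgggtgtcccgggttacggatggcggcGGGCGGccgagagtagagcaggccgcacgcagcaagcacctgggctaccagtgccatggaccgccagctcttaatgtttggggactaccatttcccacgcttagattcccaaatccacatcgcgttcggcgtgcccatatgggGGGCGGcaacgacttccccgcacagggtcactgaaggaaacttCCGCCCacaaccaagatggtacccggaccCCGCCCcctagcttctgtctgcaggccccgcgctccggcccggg
Bbc3: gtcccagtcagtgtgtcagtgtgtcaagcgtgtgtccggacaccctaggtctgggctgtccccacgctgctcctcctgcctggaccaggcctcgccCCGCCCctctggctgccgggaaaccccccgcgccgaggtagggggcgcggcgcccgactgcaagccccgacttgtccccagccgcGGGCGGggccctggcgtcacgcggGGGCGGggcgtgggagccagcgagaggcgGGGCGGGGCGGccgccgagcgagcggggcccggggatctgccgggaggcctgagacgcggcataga

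Of 32851 promoter windows of this length, 35.7% held GGGCGG on either strand and 37.4% held CCAAT, which none of these 4 windows contained. Windows were searched for 9 of the members, 15 in all, and the promoter of Pmaip1 was not analysed here. The E2F-type words TTTCGCGC, TTTGGCGC, TTTCCCGC and TTTGGCGG were searched on both strands as well, and 2.37% of all windows held at least 1 of them. Among the members, 1 of 3 windows of Bcl2l1 (chr2:152830668-152830967, minus strand) held 1 such word, TTTCGCGC. A match describes letters in the window and not a bound site.

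With FPKM none of the 3 anti-apoptotic genes passed the test, and the groups overlapped in each. Mcl1 (Entrez 17210), a short-lived guardian, stood at 59, 49, 49, 54 and 69 FPKM in cancers 1 to 5 and at 69, 58 and 61 in controls 1 to 3. It had the highest mean of the 10 members in both groups, and its log2 fold change of -0.17 had a 95% interval of -0.51 to 0.18 (limma adjusted p = 0.397). With TPM the sign turned, to 0.80 (limma adjusted p = 0.0176). Bcl2l1 (Entrez 12048), the source of BCL-XL, stood at 15, 30, 21, 20 and 35 FPKM in cancers 1 to 5 and at 30, 28 and 32 in controls 1 to 3. The cancers varied more than the controls, with cancer 5 above and cancers 1, 3 and 4 below all of them, and the log2 fold change was -0.36 with an interval of -0.97 to 0.25 (limma adjusted p = 0.309).

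Bcl2 (Entrez 12043), the founding member, first known from a B cell lymphoma translocation, was near the lowest level that whole FPKM can show. It had 3, 1, 1, 2 and 1 FPKM in the cancers and 2 in each control, so that steps of 1 FPKM span the whole range (limma log2 fold change -0.27, 95% interval -0.88 to 0.34, adjusted p = 0.443). Cancer 1, the library with the most Bcl2, was also the library with B cell markers, and Cd79a and Ms4a1 summed to 94 FPKM there and to between 0 and 2 in the other 7. Whether B cells supplied that Bcl2 was not tested.

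Within each library Mcl1 held most of the anti-apoptotic FPKM. Its share was 61.2 to 76.6% in the cancers and 64.2 to 68.3% in the controls, that of Bcl2l1 was 19.5 to 37.5% and 29.7 to 33.7%, and that of Bcl2 was 0.952 to 3.90% and 1.98 to 2.27%. All 3 shares overlapped between groups, with a wider spread among the cancers. The ratio of Bax to Bcl2, often read as a balance of death and survival, overlapped as well, with a log2 ratio of 3.32 to 4.95 in the cancers and 3.81 to 4.30 in the controls. So did that of Bax to Bcl2l1, at 0.26 to 1.56 and 0.53 to 0.84, and that of Mcl1 to Bcl2l1, at 0.69 to 1.91 and 0.91 to 1.18.

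The BH3-only genes did not move together. Bad (Entrez 12015), whose protein is held in check by phosphorylation downstream of growth factors, stood at 8, 21, 12, 19 and 14 FPKM in cancers 1 to 5 and at 28, 23 and 37 in controls 1 to 3. Every cancer lay below every control, with cancer 2 nearest to them, and the means were 14.8 ± 5.26 (SD, n = 5) and 29.3 ± 7.09 (SD, n = 3). Its log2 fold change in limma was -0.99 ± 0.31 SE (adjusted p = 0.0440; two-sided exact permutation test, p = 0.0357). This call was close to the threshold, and it was lost with TPM (limma log2 fold change -0.06, adjusted p = 0.835), with quantile normalization (adjusted p = 0.104), median-ratio size factors (0.0576) and a pseudocount of 0.01 (0.0502), without cancer 1, 3 or 5 and without any 1 of the controls (adjusted p of 0.0524 to 0.146). The row's locus, chr19:6938070-6951893 on the plus strand, spans Gpr137 on the other strand, with FPKM of 6 to 24 in the cancers and 13 to 22 in the controls (limma log2 fold change -0.41, adjusted p = 0.433).

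Bbc3 (Entrez 170770; chr7:16309583-16318334), the source of PUMA, rose, with 3, 2, 3, 2 and 3 FPKM in cancers 1 to 5 against 1, 1 and 2 in controls 1 to 3. Control 3 and cancers 2 and 4 had the same value of 2, and the difference between group means was close to 1 rounding step (limma log2 fold change 0.64 ± 0.20 SE, adjusted p = 0.0451; two-sided exact permutation test, p = 0.0714). The call held with TPM, where the groups did not overlap, as for 49.6% of all genes in that direction. There the libraries that share the value of 2 FPKM separate only because their FPKM sums differ. It was lost with quantile normalization (log2 fold change 0.24, limma adjusted p = 0.451), when all genes above 0 were tested (limma adjusted p = 0.0514), and without cancer 1, 3 or 5 and without control 1 or 2 (adjusted p of 0.0758 to 0.146 from limma). As a share of the 5 BH3-only genes Bbc3 took 5.0 to 10.7% in the cancers and 1.75 to 3.51% in the controls, without overlap. The log2 ratio of Bbc3 to Mcl1, on FPKM + 1, was -4.20 to -3.64 in the cancers and -5.13 to -4.37 in the controls, also without overlap.

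Bid (Entrez 12122; chr6:120893119-120916820), whose protein caspase-8 cleaves to connect death receptors with mitochondria, stood at 5, 4, 4, 4 and 6 FPKM in cancers 1 to 5 and at 4, 3 and 2 in controls 1 to 3. The groups met at 4, and the log2 fold change of 0.50 (standard error 0.21) did not pass the test with FPKM (limma adjusted p = 0.0941), whereas with TPM it was 1.36 (limma adjusted p = 0.00714). Its share of the BH3-only FPKM was 10 to 17.9% in the cancers and 3.51 to 7.32% in the controls. By the rounded values, Bbc3 and Bid thus both took a larger part of the BH3-only mRNA in every cancer than in any control. Bad gave fewer FPKM to these sums in the cancers. Bbc3 was at 2 FPKM in both cancer 2 and control 3, so rounding to whole numbers limits what its share can show. Bad, the largest contributor in the controls, took 26.9 to 52.8% in the cancers and 49.1 to 64.9% in the controls, with overlap.

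Bcl2l11 (Entrez 12125), the source of BIM, stood at 5, 6, 7, 3 and 7 FPKM in cancers 1 to 5 and at 5, 4 and 5 in controls 1 to 3. Cancer 4 lay below and cancers 2, 3 and 5 above all controls (limma log2 fold change 0.18, 95% interval -0.39 to 0.76, adjusted p = 0.590). With TPM the log2 fold change was 1.05 (limma adjusted p = 0.0297), and the groups did not overlap. Its ratio to Mcl1, the pair that BIM binding to MCL1 concerns, was -3.78 to -2.64 on the log2 scale in the cancers and -3.56 to -3.37 in the controls.

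Pmaip1 (Entrez 58801), the source of NOXA, which binds MCL1, stood at 7, 7, 8, 8 and 22 FPKM in cancers 1 to 5 and at 19, 10 and 11 in controls 1 to 3. In 4 cancers it lay below every control, and in cancer 5 it lay above them all. The log2 fold change was -0.42 with an interval of -1.33 to 0.50 (limma adjusted p = 0.425), and without cancer 5 it was -0.70 (limma adjusted p = 0.0559). Without control 1 it was -0.15 (limma adjusted p = 0.822). Of the p53 targets named above, Bbc3 rose in these Trp53-/-Rb1-/- cancers, Bax passed the test with TPM but not with FPKM, and Pmaip1 passed it with neither.

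**Figure D3:**
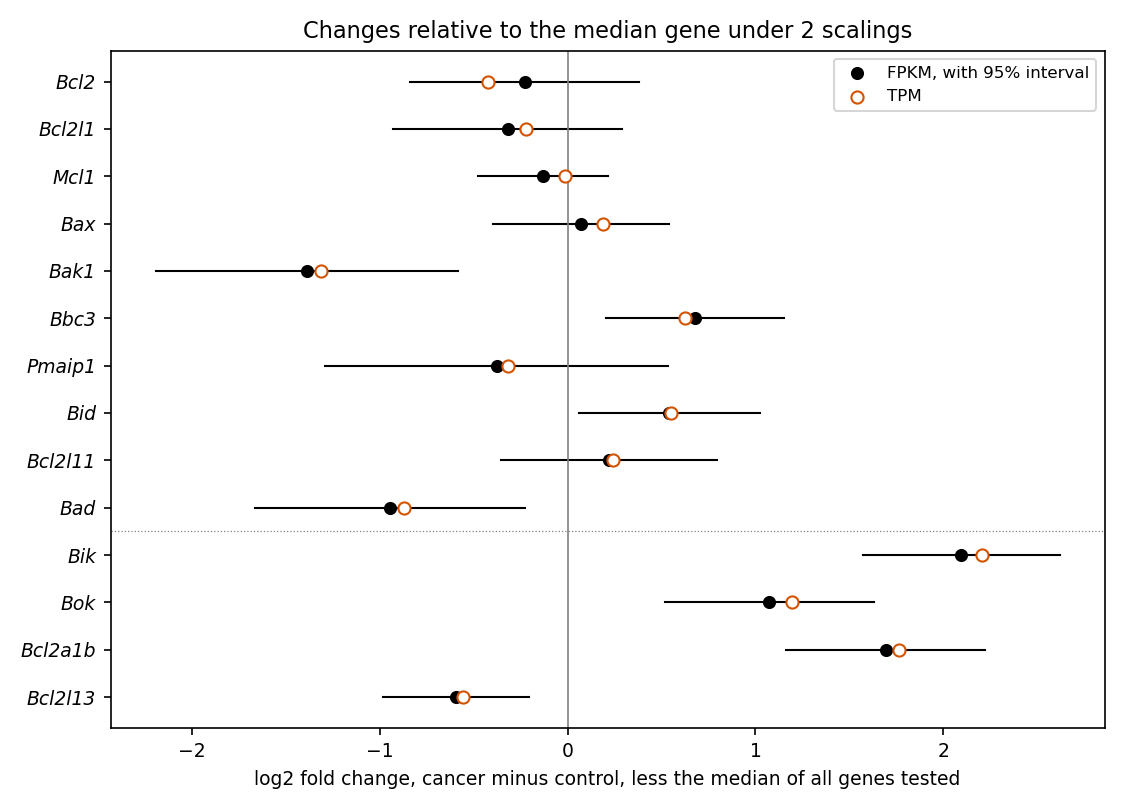
Log2 fold change of each gene (vertical axis) in cancers minus controls, less the median of all genes tested (horizontal axis), with FPKM (filled points, with the 95% interval) and with TPM (open points). The 10 members stand above the dotted line and the 4 called genes of the wider family below it; Bak1 lies at -1.39 and -1.31 and Bik at 2.10 and 2.21.

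In the order of median levels across the family, Mcl1 and Bax stood first in both groups, Bak1 stood lower in the cancers, and Bbc3 and Bcl2 changed places. In the controls the medians ran from 61 FPKM for Mcl1 through 46 for Bax, 34 for Bak1, 30 for Bcl2l1 and 28 for Bad to 11 for Pmaip1, 5 for Bcl2l11, 3 for Bid, 2 for Bcl2 and 1 for Bbc3. In the cancers they ran from 54 for Mcl1 and 46 for Bax to 21 for Bcl2l1, 14 for Bad, 12 for Bak1, 8 for Pmaip1, 6 for Bcl2l11, 4 for Bid, 3 for Bbc3 and 1 for Bcl2. Bak1 thus stood just after Mcl1 and Bax in the controls, and after Bcl2l1 and Bad as well in the cancers. In the cancers the ranges of neighbours in this order overlapped or met at 1 value except between Bax and Bcl2l1 and between Bid and Bbc3. In the controls they did so except between Bad and Pmaip1 and between Pmaip1 and Bcl2l11. The order of other neighbours, that of Bbc3 and Bcl2 included, was thus not resolved. The summed FPKM of the anti-apoptotic genes was 71 to 105 in the cancers and 88 to 101 in the controls, that of Bax and Bak1 was 48 to 87 and 70 to 101, and that of the BH3-only genes was 28 to 52 and 41 to 57.

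Bak1 and Bad placed the 5 cancers in the same order as the summed FPKM of the gastric gland markers did. The FPKM sum over all genes had that order too, at 573858, 559720, 445770, 438744 and 403569 in cancers 2, 4, 5, 3 and 1. Bak1 and Bad were highest in cancer 2, then in cancers 4, 5 and 3, and lowest in cancer 1, as was the summed FPKM of the 8 gland markers. Most of that marker sum was Tff1 and Gkn1. Gif, Muc5ac, Tff2 and Muc6 had the order as well, but Atp4a and Atp4b were highest in cancer 4, at 810 and 1336 FPKM. Tff2 and Muc6 overlapped between cancers and controls. The order of the gland marker sum was shared by 2 of the 10 members, or 20%, and by 465 of the 14357 genes tested, or 3.24%. It was looked for after the levels were seen. Cancer 1, with gland markers at 519 FPKM, had Bak1 at 9 and Bad at 8, and cancer 2, with 55398, had 26 and 21. Bax did not share the order, but it too was highest in cancers 2 and 4, at 61 in both, and lowest in cancer 1, at 39. It was at 46, 41 and 58 in controls 1 to 3, with 144402, 108786 and 149419 FPKM of gland markers. The part that glandular cells had in the lower Bak1 and Bad of the cancers was not tested. The part of the library sum in the shared order was not tested either, and the order was not examined with TPM.

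**Figure D4:**
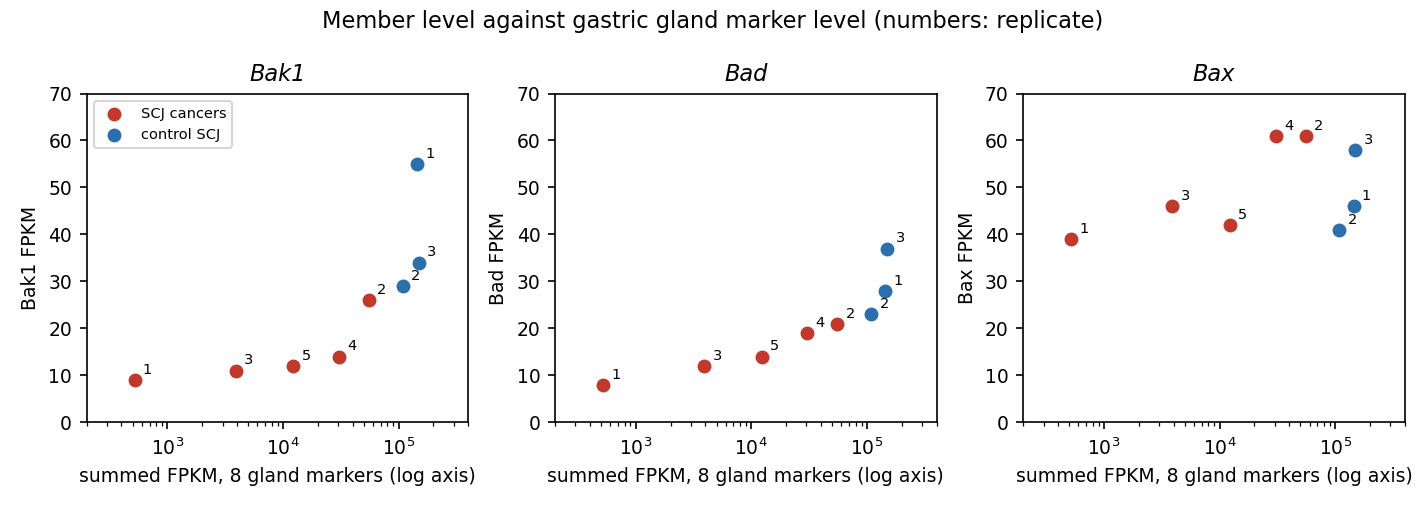
FPKM of Bak1, Bad and Bax (vertical axes) against the summed FPKM of 8 gastric gland markers (horizontal axes, log scale) in 5 cancers (red) and 3 controls (blue), with the replicate number beside each point. Bak1 and Bad are lowest in cancer 1 and highest among the cancers in cancer 2, whereas Bax is at 61 in cancers 2 and 4 and at 41 to 58 in the controls.

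The genes most like Bak1 and Bbc3, the called members with the largest fall and the largest rise, over the 8 libraries, by Pearson correlation of log2(FPKM + 1) among 9126 genes, are given as a description, since all 8 libraries share the split into cancers and controls. Those closest to Bak1 were Dedd (r = 0.993), Arhgap27 (r = 0.990) and Mad2l1bp (r = 0.988). Arhgap27 had 7 to 18 FPKM in the cancers and 21 to 41 in the controls. Those closest to Bbc3 were Gigyf1 (r = 0.987), Zcchc3 (r = 0.987) and Vegfa (r = 0.985), of which Vegfa had 32 to 55 FPKM in the cancers and 18 to 28 in the controls.

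Around the 10 members, 15 further genes of the BCL2 family were listed, of which 13 were tested, 3 rose and 1 fell, with a median log2 fold change of 0.27. That is 30.8% called, near the 34.5% of all genes. With TPM 4 rose and 0 fell by limma (0 at an unadjusted p under 0.05 and 0 by the exact permutation test), against 50.0% of all genes higher and 3.68% lower. Bik, a BH3-only gene whose protein sits at the endoplasmic reticulum, stood at 17, 33, 17, 21 and 21 FPKM in cancers 1 to 5 and at 4, 4 and 5 in controls 1 to 3 (limma log2 fold change 2.06 ± 0.23 SE, adjusted p = 0.00126). Even the lowest cancer had more than 3 times the highest control. Bik and Bok rose with TPM as well, as did Bcl2a1b.

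Bcl2a1b, a copy of the anti-apoptotic A1 gene that leukocytes use, stood at 7, 5, 9, 9 and 7 FPKM in cancers 1 to 5 and at 2, 1 and 2 in controls 1 to 3 (limma log2 fold change 1.66 ± 0.23 SE, adjusted p = 0.00275). Its near-identical copies Bcl2a1a and Bcl2a1d share reads with it, so the values of single copies are uncertain, and the 3 copies summed to 6 to 12 FPKM in the cancers and to 2 or 3 in the controls. Leukocyte markers, tested for 10 genes, rose for 2 with FPKM and for 5 with TPM, against 16.2% and 50.0% of all genes, with summed FPKM of 31 to 568 in the cancers and 49 to 214 in the controls. Most of that sum was the neutrophil gene S100a8 outside cancers 1 and 2, and without it, a choice made after its values were seen, the sums were 186, 25, 47, 19 and 31 FPKM for cancers 1 to 5 against 14, 14 and 15 for controls 1 to 3, without overlap. The part of leukocytes in the higher Bcl2a1b was not tested.

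Bcl2l13, which encodes a BCL2-like receptor for mitophagy, fell, with 9, 7, 6, 6 and 8 FPKM in cancers 1 to 5 against 10, 13 and 12 in controls 1 to 3 (limma log2 fold change -0.63 ± 0.17 SE, adjusted p = 0.0242), but with TPM the sign turned, to 0.25. Its adjusted p was 0.0745 with quantile normalization and 0.0521 to 0.0941 without cancer 3 or without control 2 or 3. Hrk and Bcl2l10 were listed at 0 in every library.

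Downstream of the effectors lie the genes of the apoptosome and the caspases. Of 11 genes tested, 4 fell and 0 rose by limma (1 rose at an unadjusted p under 0.05, and 0 by the exact permutation test), or 36.4% called against the 34.5% of all genes, with a median of -0.42 on the log2 scale. With TPM 3 rose and 0 fell by limma (0 fell at an unadjusted p under 0.05 and 0 by the exact permutation test), against 50.0% of all genes higher and 3.68% lower. The direction of the calls thus depended on the scale, as it did for genes in general. Cycs, cytochrome c, stood at 29, 79, 33, 105 and 39 FPKM in cancers 1 to 5 and at 161, 132 and 118 in controls 1 to 3 (limma log2 fold change -1.42, adjusted p = 0.0410). Aifm1, apoptosis-inducing factor, had 12, 30, 18, 31 and 15 and 56, 58 and 50 (limma log2 fold change -1.42, adjusted p = 0.0143). Both proteins also serve respiration in living cells, cytochrome c as an electron carrier and AIFM1 in assembling respiratory complexes. With TPM neither passed the test (Cycs -0.46, limma adjusted p = 0.252, and Aifm1 -0.48, limma adjusted p = 0.116). In both genes cancers 2 and 4, the 2 cancers with the most gland markers and the largest FPKM sums, were highest.

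Casp9, the apoptosome caspase, stood at 6, 7, 5, 5 and 6 FPKM in cancers 1 to 5 and at 10, 8 and 9 in controls 1 to 3 (limma log2 fold change -0.56, adjusted p = 0.0236). Dffa, which encodes the inhibitor of the nuclease that cuts DNA in apoptosis, stood at 9, 10, 7, 8 and 8 FPKM in cancers 1 to 5 and at 12, 12 and 13 in controls 1 to 3 (limma log2 fold change -0.51, adjusted p = 0.0241). Every cancer lay below every control in both genes, but with TPM both turned sign, to 0.31 and 0.39. With TPM the groups overlapped for Casp9, and for Dffa every cancer lay above every control, as for 49.6% of all genes. Apaf1, the apoptosome scaffold, had 2 to 5 and 4 to 6 FPKM (limma log2 fold change -0.32, adjusted p = 0.334).

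Quantile normalization ended the calls of Cycs (limma adjusted p = 0.0750), Casp9 (0.0721) and Dffa (0.133), and median-ratio size factors that of Dffa (0.0561). Leaving out single libraries ended several of these calls as well. The adjusted p of Cycs was 0.0724 to 0.132 without cancer 1, 3 or 5 or any 1 control. That of Aifm1 was 0.0553 and 0.0547 without control 1 and control 2, that of Casp9 was 0.0863 and 0.0663 without control 1 and control 3, and that of Dffa was 0.0657 to 0.0751 without any 1 control.

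The inhibitor of apoptosis proteins, which bind caspases further down, had 0 of 5 tested genes called by limma, against 34.5% of all genes (1 rose at an unadjusted p under 0.05, and 0 changed by the exact permutation test). Their median log2 fold change was 0.25, and with TPM it was 1.19 and 3 of the 5 rose, where 50.0% of all genes did. Xiap, the member that directly blocks caspases, stood at 13, 6, 14, 10 and 13 FPKM in cancers 1 to 5 and at 16, 14 and 11 in controls 1 to 3, with overlap.

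In the death receptor pathway, which reaches the family through BID, 1 of 10 genes tested fell and 0 rose by limma (1 rose at an unadjusted p under 0.05, and 0 by the exact permutation test). With TPM 2 rose and 0 fell by limma (0 at an unadjusted p under 0.05 and 0 by the exact permutation test). The background was 34.5% of all genes called with FPKM and 50.0% higher with TPM. Tradd, the adaptor of the TNF receptor, stood at 9, 20, 12, 16 and 12 FPKM in cancers 1 to 5 and at 34, 23 and 37 in controls 1 to 3 (limma log2 fold change -1.15 ± 0.27 SE, adjusted p = 0.0161). With TPM it was -0.22 (limma adjusted p = 0.358), and without control 1 or control 3 the adjusted p was 0.0663 or 0.0653. Casp8, which cleaves BID, had FPKM of 15, 19, 12, 17 and 14 and of 36, 21 and 14, so that control 3 lay among the cancers (limma log2 fold change -0.51, adjusted p = 0.196).

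Of the regulators of family members, 10 genes tested, 1 rose and 3 fell, or 40% called against the 34.5% of all genes. With TPM 4 rose and 0 fell by limma (0 at an unadjusted p under 0.05 and 0 by the exact permutation test), against 50.0% of all genes higher and 3.68% lower. E2f1 stood at 15, 9, 13, 6 and 13 FPKM in cancers 1 to 5 and at 1, 2 and 2 in controls 1 to 3 (limma log2 fold change 2.16 ± 0.30 SE, adjusted p = 0.00279), and it also rose with TPM. Cycling cell markers, which rise with E2F activity in dividing cells, were higher for 5 of 8 genes with FPKM and for 8 with TPM, against 16.2% and 50.0% of all genes, with summed FPKM of 235 to 409 in the cancers and 134 to 185 in the controls. Foxo3, a transcription factor that can activate Bcl2l11 and Bbc3, had 5, 4, 3, 2 and 8 and 8, 11 and 13 FPKM (limma log2 fold change -1.19, adjusted p = 0.0353). Its call was lost with TPM (limma adjusted p = 0.488), and without cancer 1, 2 or 3 or any 1 control (adjusted p of 0.0519 to 0.120).

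The other called regulators were channel genes of the membrane in which BAK sits. Vdac2, whose protein holds BAK in the outer mitochondrial membrane, stood at 85, 237, 119, 224 and 138 FPKM in cancers 1 to 5 and at 421, 341 and 358 in controls 1 to 3 (limma log2 fold change -1.31, adjusted p = 0.0251). Vdac1, the other main metabolite channel there, had 73 to 206 and 271 to 335 (limma log2 fold change -1.19, adjusted p = 0.0335). In the 5 cancers both had the same order as Bak1, Bad, the summed gland markers and the FPKM sums, with cancer 2 highest and cancer 1 lowest. With TPM they were at -0.34 and -0.21, with adjusted p of 0.255 and 0.464 from limma, and without cancer 3 or 5 or any 1 control the adjusted p was 0.0505 to 0.110 from limma. Quantile normalization also ended the call of Vdac1 (limma adjusted p = 0.0563).

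**Figure D5:**
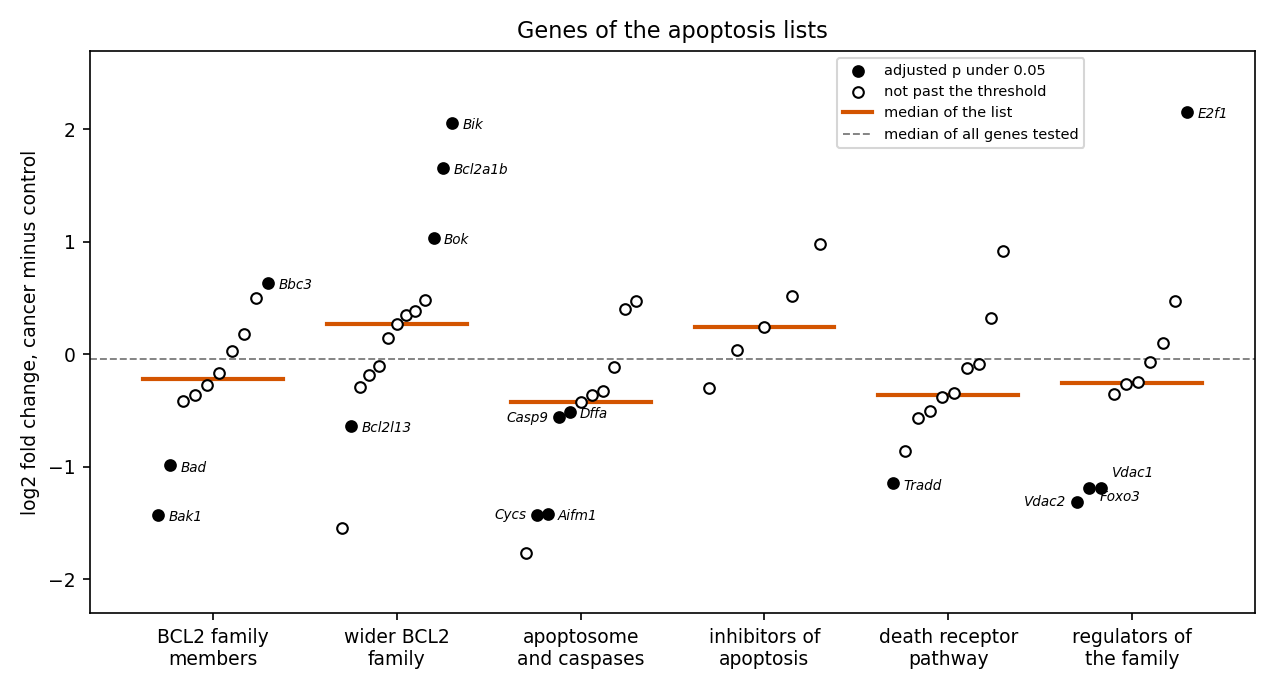
Log2 fold change with FPKM, cancers minus controls (vertical axis), of every tested gene in 6 lists of apoptosis genes (horizontal axis). Filled points passed the limma test, orange bars are list medians and the dashed line is the median of all genes, -0.04; the apoptosome and caspase list has the lowest median, -0.42, which with TPM is 0.49.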

How the data were processed

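RNA of 5 SCJ cancers and 3 control SCJ was sequenced from directional polyA libraries. Per the labels' processing notes and the study's methods, the authors trimmed reads with cutadapt 1.8, used TopHat2 2.0.13, and quantified UCSC mm10 genes with cuffquant and Cuffnorm 2.2.1. The deposited values are FPKM that the authors rounded to whole numbers, and they were treated as a score and not as counts. Of the values 100% were whole, and depth per library is unknown. Replicates are separate tumors and stomachs, the latter from age-paired mice, and the p-values measure the spread between these samples.

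The 14357 of 23361 genes that reached an FPKM of 1 in 3 or more of the 8 samples were compared on log2(FPKM + 1), a pseudocount of 1 that understates changes of low genes, using lmFit and eBayes (trend = TRUE) of limma 3.58.1 under R 4.3.3 and Benjamini-Hochberg adjustment at 0.05. Single genes were also compared by two-sided exact permutation over 56 splits. The fit was tested on simulated data. Ratios and lists were described without a test. Members, lists, rules and tests were chosen with earlier results of these data known. Named are all members, up to 4 called genes of each list by size of change, partners of family proteins, the deleted genes and the 3 genes most like the largest rise and fall. Alternatives were pseudocounts of 0.1 and 0.01, 2 filters, TPM, quantile and median-ratio scaling, no trend, array weights, a replicate block and leaving out each library. Protein sequences were not used here. Some genes of the lists are not reported here and were left out of their counts.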

Additional observations from a re-analysis of the deposited data

Results flagged for a closer look

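Among the 5 cancers, single libraries stood far from the others for 2 of the 28 genes examined in this way, where chance gives about 1 in 20 genes. Pmaip1, the NOXA gene, was at 22 FPKM in cancer 5 and at 7 or 8 in the other 4 cancers, a gap of 0.933 of the group's range. Cancer 5 was also the library with liver genes, with Alb at 266 and Fgg at 93 FPKM, against 1 to 58 and 0 in the other cancers; these genes were chosen after their values were seen, and their part in the Pmaip1 level was not tested. Bik was at 33 FPKM in cancer 2 and at 17 to 21 in the other 4, a gap of 0.75 of the range, and without cancer 2 the gene was still called. Cancer 2 also had the most smooth muscle markers, with a summed FPKM of 1335, whereas the sum lay between 45 and 413 for cancers 1, 3, 4 and 5 and between 315 and 441 for the controls, and their part in the Bik level was not tested.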

How the results depend on the processing

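With main values of 3 members called, 1 higher and 2 lower, the number called was 5 with TPM (5 higher, 0 lower), 1 with quantile normalization (0 higher, 1 lower), and 0 with a replicate block (0 higher, 0 lower). The number higher was 0 when all genes above 0 were tested and 0 with a mean FPKM of at least 5, where Bcl2, Bbc3 and Bid were not tested. The number lower was 1 with a pseudocount of 0.01 and 1 with median-ratio size factors. Leaving out each library gave 0 to 3 members called, 0 to 1 higher and 0 to 2 lower. Members without overlap between groups numbered 6 with TPM, against 2, where 49.6% of all genes were higher and 4.51% lower without overlap. Genes called numbered 4948, and 7704 with TPM, 8148 with array weights, 1534 with a replicate block and 2548 to 5232 without 1 library; without control 1, 2 or 3 they numbered 2548, 2700 and 2874. With TPM the sign turned for Bcl2 (0.39), Bcl2l1 (0.59), Mcl1 (0.80), Pmaip1 (0.49), Bcl2l13 (0.25), Casp9 (0.31), Dffa (0.39), Casp8 (0.43), Apaf1 (0.49), Xiap (0.62) and Trp53 (0.86), on a scale where the median gene stands at 0.81. It turned for Mcl1 (0.28) and Trp53 (0.13) with quantile normalization and for Trp53 (0.021) with median-ratio size factors. Without 1 library Bax ranged from -0.076 to 0.17 and Trp53 from -0.29 to 0.027. Over all members and alternatives, 8 log2 fold changes turned sign. Of those that kept it, 143 stayed on their side of the threshold, 23 lost the call and 3 gained it. For the other named genes these numbers were 12, 251, 60 and 0. Among the values that turned sign, Mcl1 and Trp53 gained a call with TPM (limma adjusted p = 0.0176 and 0.0201), and Bcl2l13, Casp9 and Dffa lost theirs. Samples sharing a number did not deviate together (r = -0.021, -0.19 and -0.10), but these 3 correlations cannot exclude pairing. The numbers are not stated to pair samples, so the main fit has no block. Apart from the shift that TPM adds and the fewer genes or samples, the cause was not tested. Whole FPKM limit what can be said of Bcl2, Bbc3, Bid and Bcl2l11.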
